A study of Mus musculus with 2 samples.

Results

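The genes described here are 43 cell cycle genes in CMT-93, a mouse rectal carcinoma line, and in CMT-93-PM1, a culture derived from it through the lung. They were listed by name and divided by textbook role into 19 genes of S phase, which license and copy the DNA, and 24 of mitosis. On the array, 42 of the 43 were named by the platform annotation, and all 42 were above the detection floor on both arrays. Ccnb1 has no probe set under its name in that annotation and its signal is not analysed here. The whole table held 18193 named genes, of which 13332 were measured, meaning above the 40th percentile of signal on at least 1 array. Parental CMT-93 cells and CMT-93-PM1 cells each gave RNA for 1 Affymetrix array, from 6 µg of total RNA, in the same culture medium. CMT-93-PM1 came from tumours that the labels describe as lung metastases, found 8 weeks after CMT-93 cells were put into the tail veins of female C57BL/6 mice aged 6 weeks, and it was grown as a primary culture before RNA was taken. The labels name no other treatment, no genetic change and no second derivative, so CMT-93-PM1 is a single recovered culture, and how many mice it came from is not stated.

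Before each round of DNA copying, a cell licenses its replication origins. The origin recognition complex, Cdc6 and Cdt1 load rings of Mcm2 to Mcm7, the replicative helicase, onto DNA in G1, and GINS and Cdc45 then switch the helicase on. E2F transcription factors, held back by the Rb family, drive many of these genes, with cyclin E as the partner of Cdk2 at the start of S phase. Genes of mitosis peak later and are controlled by B-Myb, FoxM1 and the MuvB core through promoter elements called the CHR and the CCAAT box. In the intestine both programmes belong to the crypt, and in a tumour line they mark the fraction of cells in cycle.

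With 1 array per line there is no replicate, no test between the lines and no p-value. Culture, labelling and hybridization differ together with the line and cannot be told apart from it. Signals are log2 values as deposited. A ratio is the log2 signal of the lung-recovered array minus that of the parental array, so a positive ratio means a higher signal in CMT-93-PM1. The spread that these data do contain is between probe sets of the same gene. Its median SD was 0.18 log2 over 6172 genes with several measured probe sets, with a 90th percentile of 0.52, and 0.13 over 29 such members. That spread is between probes read on the same arrays and says nothing of how far 2 cultures of the same line would differ. Signals of different genes come from different probes and are not set against each other. In bulk RNA, more cells in a phase and more RNA per cell cannot be told apart.

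Epithelial markers of the labelled tumour type were present in both cultures, with Krt8, Krt18, Krt19, Epcam and Cdh1 between 10.36 and 12.98 log2. Some of these were also higher in the lung-recovered line, Krt18 by 0.92, Epcam by 0.84 (0.38 by its other probe set) and Krt8 by 0.56, while Krt19 (0.26) and Cdh1 (-0.14) differed less. Of the 12 epithelial markers 8 were measured, with a median ratio of 0.18, and their part in the results was not tested. Of the intestinal markers, Cdx2 (5.24 parental and 5.08 lung-recovered) and Hnf4a (5.2 and 5.12) were close to the floors of 4.69 and 4.59, and Cdx1, Vil1, Lgals4 and Krt20 did not exceed the floor on either array. Among markers of host cells that a lung explant could carry, Ptprc of leukocytes, Col1a1 and Col3a1 of fibroblasts and Pecam1 of endothelium were at the floor on both arrays. Measured markers numbered 5 of 8 for lung epithelium, 3 of 8 for fibroblasts, 4 of 8 for endothelium and 3 of 8 for leukocytes. Apart from Cdh5, the brightest of each list were Sftpb (6.70 and 6.32), Col1a2 (5.65 and 5.34), Egfl7 (6.68 and 6.64) and Laptm5 (6.54 and 6.41). Among the measured host markers, Cdh5, an endothelial cadherin gene, was the exception in size, at 4.21 and 9.30. That is at least 24.4-fold higher against the parental floor (0.83 log2 by its other measured probe set). The other measured host markers had ratios between -0.70 for Ager and 0.00, and the part of host cells in the results below was not tested.

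The helicase and its loaders Cdc6 and Cdt1 were higher in the lung-recovered line as a block. This block was set apart after seeing the data. The origin recognition complex, which loads the ring with them, is in a list described below. Its genes ran from -0.17 for Orc2 to 0.96 for Orc6 and are not counted here. All 6 MCM subunits and both loaders had ratios between 0.64 and 0.81 log2, or 1.56-fold to 1.75-fold, with a median of 0.68. All measured genes had a median of 0.00, and those within the range of signal of these 8 genes had a median of 0.06. Mcm2 read 10.30 on the parental array and 11.11 on the lung-recovered array. Mcm6 read 10.98 and 11.78. Mcm3 read 10.89 and 11.58. These subunits form part of the same ring, and their lung-recovered signals were above the parental ones by nearly the same amount. Mcm4 read 11.30 and 11.98. Mcm5 read 11.19 and 11.85. Mcm7 read 11.43 and 12.07, with the smallest difference of the 6. Cdt1, which brings the ring to the origin and is held by geminin after licensing, read 11.23 and 11.99. Cdc6, the ATPase that works with it on the origin recognition complex, read 8.44 and 9.12.

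Different probe sets of the same genes gave the same picture. The 6 MCM genes have 18 measured probe sets, and their ratios ran from 0.51 for a probe set of Mcm7 to 0.91 for one of Mcm6. The 5 probe sets of Mcm3 gave 0.69 to 0.84, and the 3 of Mcm5 gave 0.66 to 0.83. With the loaders, 21 of 21 measured probe sets had ratios above 0, and 19 of them were at least 1.5-fold higher. By their brightest probe set, 49.2% of all measured genes were above 0 and 11.5% were at least 1.5-fold higher. The 21 probe sets are repeat reads of 8 genes on the same arrays, and these genes were grouped after seeing the data. In each of the 7 genes with several measured probe sets (all but Cdc6), a dimmer probe set gave a larger ratio than the brightest, up to 0.95 for Cdt1. For Mcm7 the dimmer probe sets lay on both sides of it, from 0.51 to 0.67.

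The rest of the S-phase genes divided. Gins2, a subunit of the GINS complex that activates the helicase, read 8.27 and 9.0, a ratio of 0.73 (0.87 by its other probe set). E2f1, which encodes one of the E2F transcription factors, read 8.24 and 9.05, a ratio of 0.81. Its other probe sets gave 0.85 and 0.33, the latter at 4.84 and 5.17, close to the floor. Thus 10 of 19 S-phase members lay between 0.64 and 0.81, the other 9 lay between -0.40 and 0.14, and the 0.50 between 0.14 and 0.64 was empty. This division was seen in the values and is a description.

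Genes of the replication fork and of nucleotide supply made up most of the lower set. Gins1, the partner of Gins2 in the same complex, read 8.70 and 8.75. Pcna, the sliding clamp of the polymerases, read 12.49 and 12.50. The ribonucleotide reductase subunit genes Rrm1 (10.90 and 11.02) and Rrm2 (11.17 and 11.31) had ratios of 0.12 and 0.14, and the probe sets of Rrm2 gave both signs, from -0.05 to 0.19. These differences are no larger than the median SD between probe sets of a gene. The thymidine kinase gene Tk1 read 8.39 and 8.46. Tyms, which encodes thymidylate synthase, read 6.09 and 5.99 by its brightest probe set, 5.21 and 4.23 by a second, and was at the floor by its remaining 2, so its level is poorly measured here.

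The regulators at the start of S phase went in different directions. Against E2f1, the cyclin E genes were lower in the lung-recovered line, Ccne1 at 7.63 and 7.23 and Ccne2 at 8.32 and 8.0. Both probe sets of Ccne1 gave nearly the same ratio, -0.40 and -0.39. Mybl2, which encodes B-Myb and is itself an E2F target, read 8.64 and 8.65, with 0.06 by its other probe set. Among the 4 regulators E2f1 was thus the one with a clearly higher signal. The ratios of Mybl2, Tk1 and Gins1 are so small that they turned negative under quantile normalization or lowess.

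**Figure D1:**
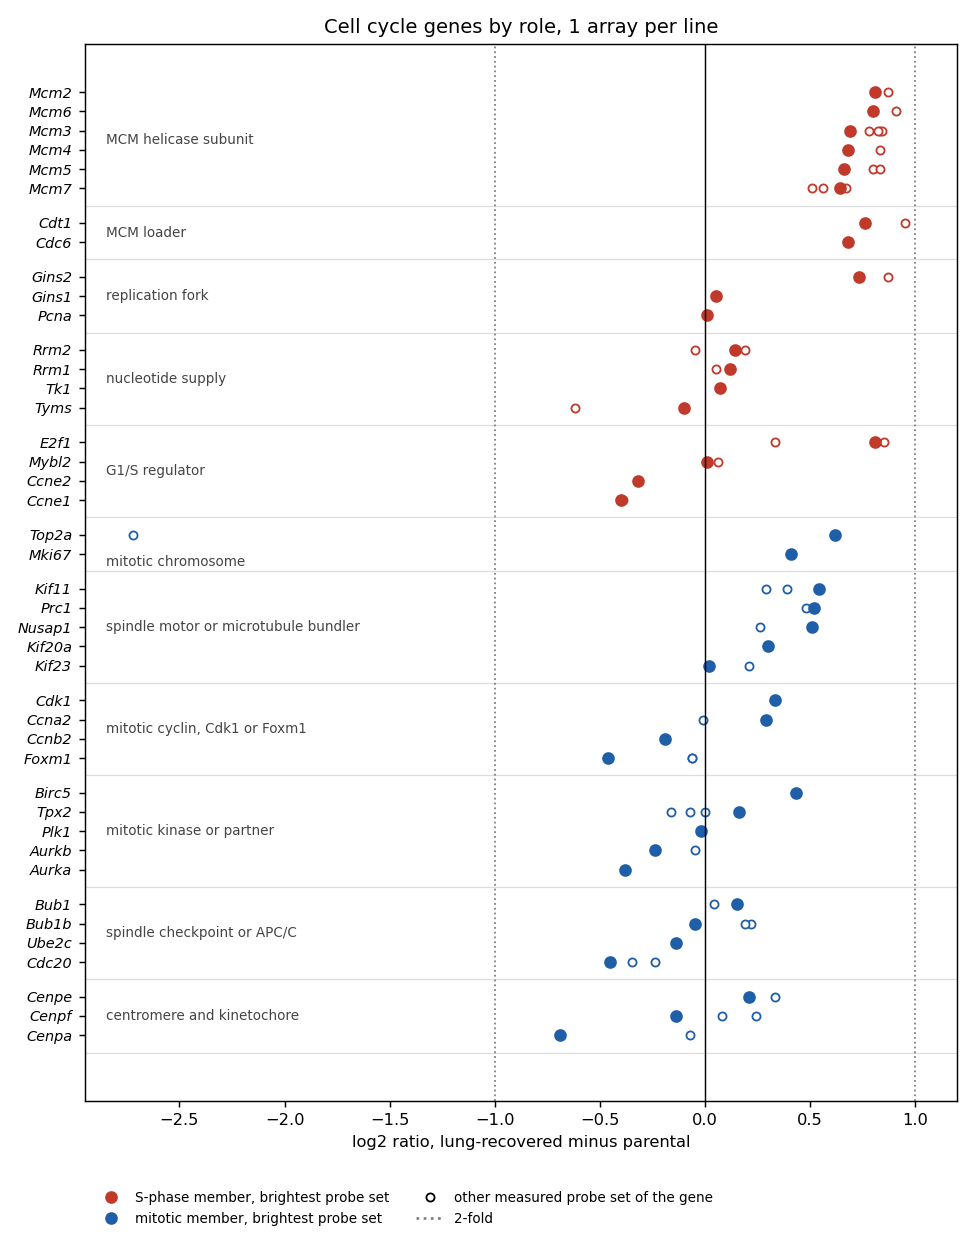
Each of the 42 measured cell cycle genes is a row, grouped by role. The horizontal axis is the log2 ratio, lung-recovered minus parental. Filled points are the brightest probe set, open points the gene's other measured probe sets, red S-phase and blue mitotic members, and dotted lines mark 2-fold. The 8 MCM subunit and loader genes lie between 0.64 and 0.81, while nucleotide supply genes lie near 0 and mitotic genes run from -0.69 to 0.62.

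The mitotic genes had no common direction. Of 23 measured, 13 had ratios above 0 and 10 below, with a median of 0.15 and a range from -0.69 to 0.62. The 5 genes for spindle motors and microtubule bundlers had a median of 0.51, with Kif23 far below the others, and the 2 for mitotic chromosomes one of 0.52. Differences between roles were not tested. Kif11, the bipolar kinesin, read 8.87 and 9.41 (0.29 and 0.39 by its other probe sets), and Prc1, which bundles the midzone microtubules, read 9.69 and 10.21. Nusap1, which binds spindle microtubules, read 8.78 and 9.29. The kinesin gene Kif20a read 9.01 and 9.31, and Kif23, the kinesin of centralspindlin, read 8.84 and 8.86. All 10 measured probe sets of these 5 genes had ratios above 0, from 0.02 to 0.54, and none reached 1.5-fold. The smallest, that of Kif23 by its brightest probe set, went down to -0.08 under another scaling, while those of Kif11, Prc1, Nusap1 and Kif20a stayed at 0.21 or more.

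The 2 genes most often used as proliferation markers were both higher by their brightest probe sets. Mki67, which encodes the Ki-67 coat of mitotic chromosomes, read 10.10 and 10.51. Top2a, the topoisomerase that untangles sister DNA, read 10.78 and 11.40, a ratio of 0.62 and the highest of the mitotic genes. A second Top2a probe set read 9.01 and 6.29, a ratio of -2.72 in the opposite direction, and the remaining one was at the floor on both arrays. The probe sets of Top2a thus disagree by more than those of any other member, and its direction is not settled by these arrays. Birc5, which encodes survivin of the chromosomal passenger complex, read 9.72 and 10.15.

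The kinases and cyclins that drive mitosis lay on both sides of 0, with Cdk1 and Ccna2 above it and the Aurora kinases and Ccnb2 below. Cdk1, the mitotic kinase itself, read 10.26 and 10.59, and its S- and G2-phase partner Ccna2 read 10.63 and 10.92, with -0.01 by its second probe set. The cyclin B gene Ccnb2 read 9.74 and 9.55. Foxm1, the forkhead factor of this programme, read 8.36 and 7.90 by its brightest probe set and had a ratio of -0.06 by each of 2 others. Plk1, a kinase needed from mitotic entry to cytokinesis, read 9.54 and 9.52, a difference whose sign changed with the scaling. The Aurora kinase genes were lower, Aurka at 9.27 and 8.89 and Aurkb at 8.37 and 8.13 (-0.05 by its other probe set). Tpx2, the spindle factor that activates Aurora A, read 9.22 and 9.38, while its other probe sets gave -0.16 to 0.00.

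Genes of the spindle checkpoint, of its target and of the centromere included the lowest member, Cenpa. Cdc20, which activates the anaphase-promoting complex, read 10.23 and 9.78, and its other probe sets gave -0.35 and -0.24. Ube2c, the ubiquitin-conjugating enzyme of that complex, read 11.83 and 11.69. The checkpoint kinase genes Bub1 (9.73 and 9.88) and Bub1b (8.69 and 8.64) were near 0, and Bub1b changed sign with the probe set, up to 0.22. Cenpa, the histone H3 variant that marks centromeres, read 10.24 and 9.55, a ratio of -0.69. Its dim second probe set (5.72 and 5.65) gave -0.07. Cenpe, a kinetochore motor, read 8.86 and 9.07, and Cenpf read 9.02 and 8.88, with 0.08 and 0.24 by its other probe sets.

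Set side by side, the S-phase members had a median of 0.64 and the mitotic members one of 0.15, a difference of 0.49. Among S-phase members 16 of 19 had ratios above 0, against 13 of 23 mitotic members, where 49.2% of all measured genes and 55.2% of those within the members' range of mean signal (6.04 to 12.50 log2) did. At 1.5-fold, 10 S-phase members were higher and 0 lower, and 1 mitotic member (Top2a) was higher and 1 (Cenpa) lower. Of all measured genes, 11.5% were higher by 1.5-fold or more and 6.95% were lower by as much, and within the members' signal range these shares were 13.5% and 7.46%. At 1.5-fold, or 0.58 log2, the mitotic counts were thus near the background and the S-phase count was above it. That cut falls in the empty stretch of the S-phase ratios between 0.14 and 0.64. With the medians of the arrays set equal, all ratios were higher by 0.10, 74.6% of the genes past 1.5-fold were higher ones (62.3% as deposited), and 4 mitotic and 10 S-phase members were 1.5-fold or more higher. At 2-fold no member passed in either direction, where 6.97% of all measured genes and 7.66% within the signal range did. Genes are not replicates of a line, so the difference between the medians has no test. The S-phase median itself lies at the lower edge of the upper cluster of a divided set. The mean of the S-phase ratios was 0.36 and that of the mitotic ones 0.08, a difference of 0.28. The 8 MCM subunits and loaders alone had a mean of 0.72, and the 11 other S-phase members had a median of 0.05 and a mean of 0.10.

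**Figure D2:**
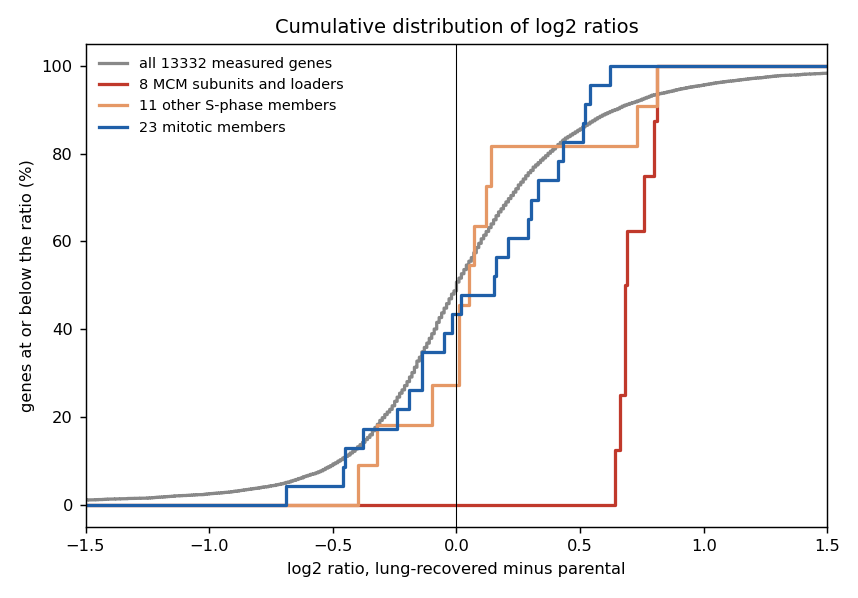
Cumulative share of genes, in percent, at or below each log2 ratio (lung-recovered minus parental) for all 13332 measured genes, the 8 MCM subunits and loaders, the 11 other S-phase members and the 23 mitotic members. The curve of the MCM genes and loaders starts at 0.64. The medians of the other S-phase members (0.05) and of the mitotic members (0.15) are closer to that of all genes (0.00). Ratios above 0 were held by 72.7% of the other S-phase members, 56.5% of the mitotic members and 49.2% of all genes.

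**Figure D3:**
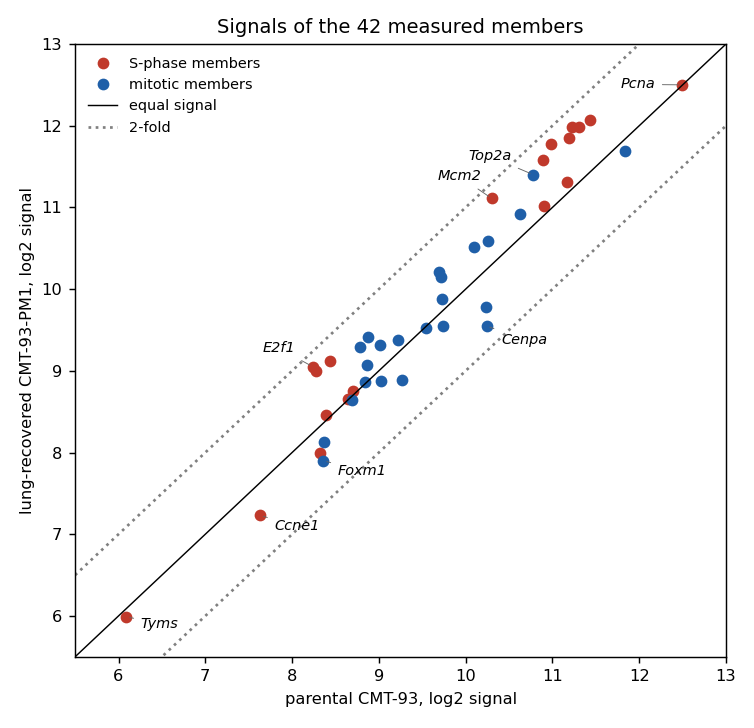
Signal of each of the 42 measured members on the parental array (horizontal, log2) and on the lung-recovered array (vertical, log2), S-phase members in red and mitotic members in blue. The solid line is equal signal and the dotted lines are 2-fold, and no member lies outside them by its brightest probe set.

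Promoter motifs were counted in the S-phase and mitotic genes, with no test. RefSeq windows of GRCm38.p6, 250 bases before to 50 after a start, were at hand for 34 of the 43 genes, among them Ccnb1. They were searched on both strands for E2F motifs (TTTGGCGC, TTTCCCGC, TTTCGCGC or TTTGCCGC), for the CHR (TTTGAA or TTCGAA) and for the CCAAT box (CCAAT). An E2F motif lay in 6 of 15 S-phase windows and in 1 of 19 mitotic windows, that of Cdk1, against 2.60% of 27025 genes. The 6 were Mcm3, Mcm5, Mcm6, Mcm7, Cdc6 and Cdt1, out of 7 MCM and loader genes with a window, while 0 of the 8 other S-phase windows held one. Mcm2, the seventh, held a CHR motif 70 bases before its start and no E2F match. A CHR motif lay in 15 of 19 mitotic and 2 of 15 S-phase windows (21.7% of all genes), and a CCAAT box in 17 of 19 and 8 of 15 (41.1%). The MCM and loader genes were set apart from the other S-phase genes after seeing the data. A match describes letters and is no evidence of binding. A window without a match may hold a site of other letters, so it does not show that E2F sites are absent. Mybl2, called an E2F target above, has a window without a match.

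The E2F matches, in capitals, are shown for the 6 MCM and loader genes whose windows hold one. E2f1 and Mcm2, which had the highest ratios of all members, have windows without a match, and Cdk1 has one with a ratio of 0.33. The first 2 stretches lie upstream of the start, on chromosome 1 minus strand for Mcm6 (chr1:128359706-128359885) and chromosome 8 plus strand for Mcm5 (chr8:75109329-75109467). In both, 2 matches on opposite strands overlap. The next 4 are stretches of 30 bases around a match, for Mcm3 (chr1:20820275-20820304, minus strand, after the start), Mcm7 (chr5:138172030-138172059, minus strand), Cdc6 (chr11:98908002-98908031, plus strand) and Cdt1 (chr8:122568035-122568064, plus strand, after the start).
Mcm6: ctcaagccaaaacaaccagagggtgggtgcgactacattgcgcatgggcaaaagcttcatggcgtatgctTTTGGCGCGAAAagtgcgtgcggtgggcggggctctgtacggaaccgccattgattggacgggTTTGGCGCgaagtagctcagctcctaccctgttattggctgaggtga
Mcm5: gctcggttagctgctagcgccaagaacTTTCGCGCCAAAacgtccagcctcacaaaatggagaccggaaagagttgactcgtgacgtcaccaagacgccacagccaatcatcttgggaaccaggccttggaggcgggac
Mcm3: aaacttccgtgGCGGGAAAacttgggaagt
Mcm7: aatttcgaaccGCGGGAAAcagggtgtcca
Cdc6: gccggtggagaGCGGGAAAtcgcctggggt
Cdt1: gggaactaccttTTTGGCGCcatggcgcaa

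The CHR matches, in capitals, are shown for mitotic genes on both sides of 0. Those of Cdc20 (chr4:118437344-118437523, minus strand), Ube2c (chr2:164769749-164769928, plus strand), Kif11 (chr19:37376202-37376381, plus strand) and Cdk1 (chr10:69352913-69353092, minus strand) lie within 180 bases before the start. Those of Prc1 (chr7:80294434-80294463, plus strand), Cenpa (chr5:30666890-30666919, plus strand), Aurka (chr2:172370521-172370550, minus strand) and Plk1 (chr7:122159453-122159482, plus strand) lie close to the start or after it, in stretches of 30 bases. Genes with a CHR match had ratios of either sign, with Kif11 (0.54) and Prc1 (0.52) above 0 and Cdc20 (-0.45), Aurka (-0.38) and Cenpa (-0.69) below. A relation between the match and the ratio was not tested.
Cdc20: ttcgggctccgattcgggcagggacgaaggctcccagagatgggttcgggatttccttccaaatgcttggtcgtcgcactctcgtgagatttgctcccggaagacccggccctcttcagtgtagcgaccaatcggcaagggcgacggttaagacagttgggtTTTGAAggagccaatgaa
Ube2c: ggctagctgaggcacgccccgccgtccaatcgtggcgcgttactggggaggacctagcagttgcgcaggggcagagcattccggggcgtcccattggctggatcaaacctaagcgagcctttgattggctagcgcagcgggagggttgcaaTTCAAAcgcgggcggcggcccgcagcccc
Kif11: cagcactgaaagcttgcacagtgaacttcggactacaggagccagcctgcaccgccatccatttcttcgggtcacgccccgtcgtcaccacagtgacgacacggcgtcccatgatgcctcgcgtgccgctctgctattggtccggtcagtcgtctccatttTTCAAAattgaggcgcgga
Cdk1: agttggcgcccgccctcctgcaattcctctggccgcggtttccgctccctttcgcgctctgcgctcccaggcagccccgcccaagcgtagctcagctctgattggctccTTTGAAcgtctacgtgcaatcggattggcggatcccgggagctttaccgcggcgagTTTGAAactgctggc
Prc1: cctctggctcggTTTGAAttccgcggggtc
Cenpa: ggcgggtgatttTTTGAActgctggcgacc
Aurka: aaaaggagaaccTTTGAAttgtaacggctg
Plk1: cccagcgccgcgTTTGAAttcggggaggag

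Beyond the 43 genes, 10 lists of other cell cycle genes were described in the same way. They hold 261 genes, none of them a member, and 254 were measured. Past 2-fold there were 8 higher and 3 lower genes, or 11 in all. That is 4.33% of the genes measured, below the 6.97% of all genes, and the count was 6 after quantile normalization or lowess. At 1.5-fold, 38 (15.0%) were higher and 8 (3.15%) lower, against 11.5% and 6.95% of all genes, or 13.5% and 7.46% in the members' signal range. All 10 list medians were above 0, as was that of all genes in this range (0.06), from 0.06 for the anaphase-promoting complex to 0.34 for the 6 measured Cdk inhibitors. After quantile normalization or lowess, that of the anaphase-promoting complex was -0.02 and that of nucleotide synthesis 0.00. For the counts of genes above 0 in each list below, the share of all measured genes was 49.2%. Within the members' signal range it was 55.2%.

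Genes that recognise and fire origins had a median of 0.22, with 15 of 20 above 0 and 0 past 2-fold. That median was 0.07 by the median over probe sets. Orc6, the small subunit of the origin recognition complex, read 10.12 and 11.08, a ratio of 0.96, and Mcm8, a relative of the MCM subunits with a role in recombination, read 8.05 and 8.79. Other genes of the origin recognition complex had smaller ratios than Orc6, with Orc1 at 0.03, Orc3 at 0.11, Orc5 at 0.24 and Orc4 at 0.26. Further probe sets of Orc1 and Orc3 gave negative ratios, and those of Orc4 gave both signs. Orc2 (8.89 and 8.72) and Gins4 (8.80 and 8.53) were the lowest of the list. The GINS subunits thus ran from -0.27 for Gins4 to 0.73 for Gins2.

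Polymerases, clamp loader and RPA had a median of 0.32, with 25 of 36 above 0. Pola1, the catalytic subunit of the priming polymerase, read 8.66 and 9.68, or 2.03-fold higher, and Rpa1, which coats single-stranded DNA, read 10.89 and 11.65 (0.74 by its other probe set). Pole4, a small subunit of polymerase epsilon, read 9.27 and 8.12, or 2.22-fold lower, with -1.26 by its other probe set, and Rfc5 of the clamp loader read 9.18 and 8.60. At 1.5-fold 8 of the 36 (22.2%) were higher and 1 (2.78%) lower. Of all measured genes 11.5% were higher and 6.95% lower, and within the members' signal range 13.5% and 7.46%.

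Enzymes of nucleotide synthesis, like the nucleotide supply genes among the members, had a median close to 0, at 0.07, with 15 of 25 above 0. Prps2, which makes the ribose donor, read 8.52 and 9.55 (0.51 to 0.92 by its other probe sets), and Dhodh of pyrimidine synthesis read 8.38 and 9.19. The deaminase gene Dctd read 7.92 and 7.14. Gart of purine synthesis read 10.31 and 9.67, with its other probe sets from -1.14 to -0.01.

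Cyclins, kinases, Rb and E2F genes of G1 had a median of 0.13, with 19 of 30 above 0 and 0 past 2-fold, and one of 0.04 by the median over probe sets. Rbl1, the Rb relative p107 and itself an E2F target, read 8.19 and 8.99, and the repressive E2F gene E2f8 read 9.6 and 10.33 (0.09 by its other probe set). E2f5, an E2F that works with the Rb relatives as a repressor, read 9.94 and 9.11 and was lower by all its probe sets, the others from -0.71 to -0.58. Mycn read 7.06 and 6.49, with 0.01 by its other probe set. The median of the Cdk inhibitors was 0.17 with a floor at the 20th percentile, with no floor or without suffixed probe sets. Among them Cdkn2a, whose locus encodes p16 and p19Arf, read 10.32 and 11.25, and its neighbour Cdkn2b read 8.26 and 8.88. The inhibitor genes Cdkn1b (11.09 and 10.77) and Cdkn2c (10.31 and 10.05) were lower.

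Kinetochore and checkpoint genes, the longest list, had a median of 0.21, with 3 genes past 2-fold higher and 1 lower of 38 (10.5%, against 6.97% of all genes). Zwilch was under 2-fold after quantile normalization (0.92) or lowess (0.93), Cenpp with a floor at the 60th percentile (0.68) and Cenpw by the median over probe sets (-0.54). Cenph (7.56 and 8.68), Cenpp (5.78 and 6.86) and Zwilch (8.47 and 9.48) were higher. Cenph and Cenpp belong to the inner kinetochore, and Zwilch to the complex that recruits checkpoint proteins. Cenpw read 9.77 and 8.59 by its brightest probe set and had a ratio of 0.11 by its other, and Cenpi read 8.85 and 8.19.

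The anaphase-promoting complex had 10 of 19 genes above 0 and 0 past 2-fold. Its subunit genes Anapc10 (9.59 and 10.19) and Anapc2 (9.46 and 10.00) were the highest, and Anapc16 (10.74 and 10.20) and Cdc16 (9.84 and 9.43) the lowest. Spindle, centrosome and cytokinesis genes had a median of 0.21 (0.13 by the median over probe sets), with 28 of 35 above 0. Haus1, of the augmin complex that branches microtubules, read 9.67 and 10.68, and the minus-end kinesin gene Kifc1 read 9.03 and 9.71. The spindle pole genes Ckap2 (8.87 and 8.17) and Aspm (8.58 and 8.05) were lower.

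Condensin, cohesin and mitotic chromatin genes had a median of 0.26 (0.17 without suffixed probe sets), with 19 of 27 above 0. The condensin subunit genes Ncapg (8.41 and 9.48, and 0.80 by its other probe set) and Ncapg2 (9.68 and 10.61) were the highest, while the cohesin subunit gene Stag1 read 8.66 and 7.66, with -0.85 to -0.56 by its other probe sets. Esco1, which acetylates cohesin, read 9.38 and 9.07, with 0.15 by its other probe set. Genes of entry into mitosis had a median of 0.10 (0.01 after quantile normalization), with 11 of 18 above 0. Plk2, a stress- and serum-induced relative of Plk1, read 9.75 and 11.22, or 2.77-fold higher, the largest ratio in these lists, and the kinase gene Melk read 8.60 and 9.30. Cyclin F (Ccnf, 8.17 and 7.61) and the phosphatase gene Cdc25b (8.38 and 8.01) were lower.

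**Figure D4:**
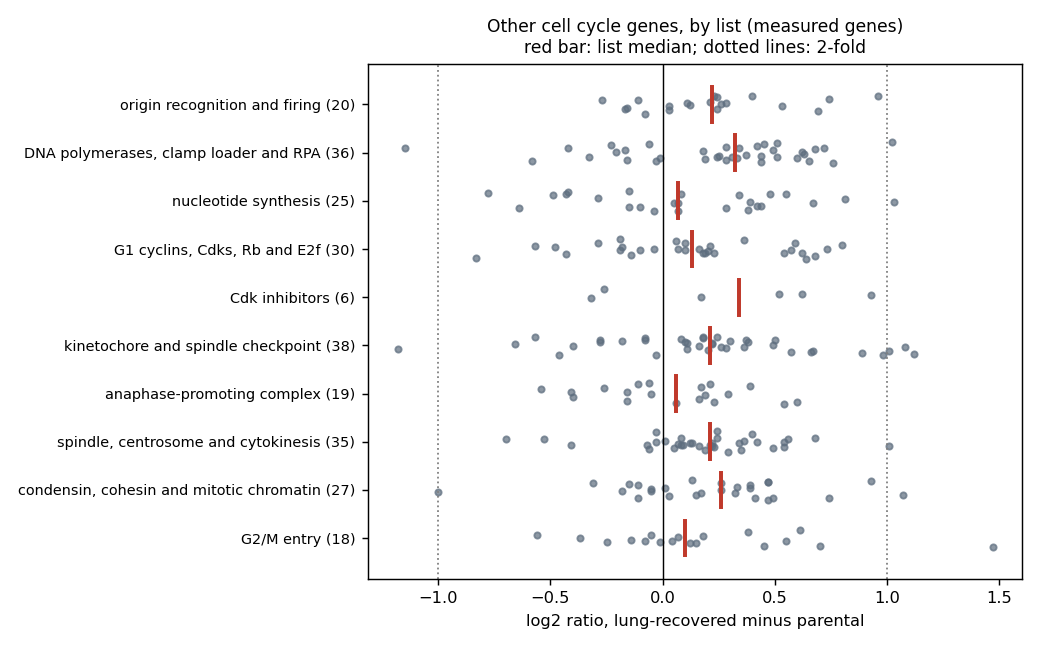
Each point is a measured gene of 1 of the 10 lists of other cell cycle genes (number measured in parentheses), placed by its log2 ratio, lung-recovered minus parental. Red bars are list medians, from 0.06 to 0.34 as deposited (that of the anaphase-promoting complex is -0.02 after quantile normalization or lowess), and dotted lines mark 2-fold, which 8 genes passed upward and 3 downward.

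The order of the groups held when the arrays were processed in other ways. Under the 8 other choices of scaling, floor and probe set, the median of the 8 MCM subunits and loaders lay between 0.65 and 0.82, and that of the mitotic members between -0.02 and 0.25. The S-phase median was 0.60 to 0.74 under 7 of these choices. It was 0.19 without suffixed probe sets, when 17 S-phase members remained and the middle one was Rrm2, the highest of the lower cluster.

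**Figure D5:**
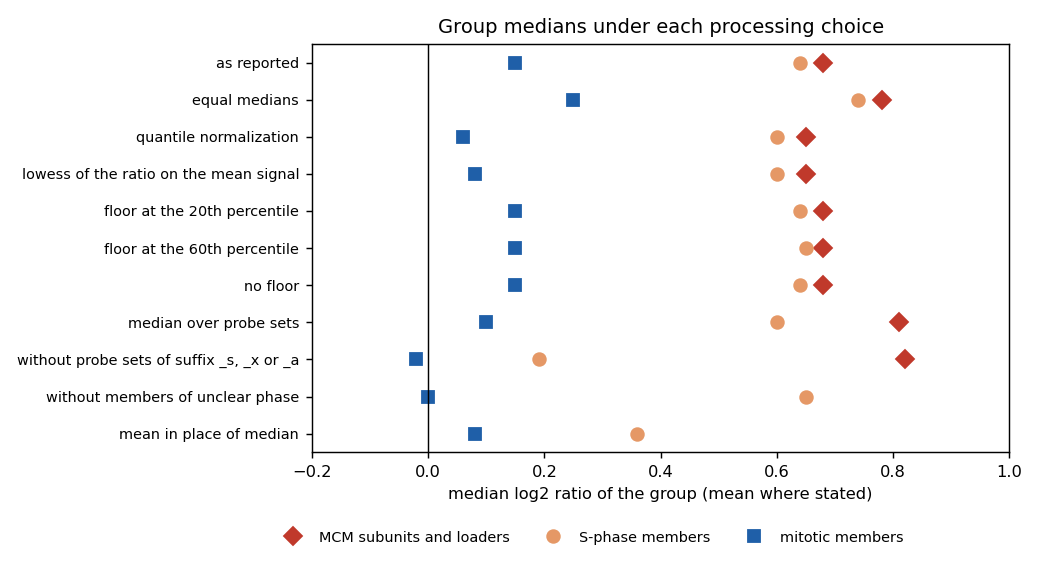
Median log2 ratio (lung-recovered minus parental) of the MCM subunits and loaders, all S-phase members and the mitotic members under each processing choice, 1 choice per row, with the mean in the lowest row. The MCM subunits and loaders lie between 0.65 and 0.82 where they were computed, the 0.82 being without Cdc6 and Mcm7. The mitotic members lie between -0.02 and 0.25.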

How the data were processed

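Each culture was measured on 1 Affymetrix array of biotin-labelled cRNA, per the labels' protocols. The authors deposited log2 signals for 45037 probe sets per array. The base was taken from the values, since none is stated, and MAS5 appears in the submitters' processing notes without a role. Probe summary and array scaling: not given in the sources used here. The columns were used as deposited (medians 5.36 parental and 5.26 lung-recovered).

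Probe sets with 1 symbol in the platform annotation (34945 of 35877 listed) were named and updated through Entrez identifiers to the GRCm38.p6 gene table. Of several probe sets the one with the highest mean signal represents a gene. Each array was floored at its 40th percentile (4.69 and 4.59). A gene was measured if above it on at least 1 array. Fold rules were 2 and 1.5.

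The members and lists were chosen with earlier results of these data known. The text gives values for all members, and for each list the genes past 2-fold (up to 4) and the 2 furthest from 0 on either side, if neither signal was at the floor. Alternatives changed the scaling, floor, probe set, summary and members. Of 305 list and marker symbols 299 were named, 1 through an older name. Computation used Python 3.11.15, pandas 2.3.3 and statsmodels 0.14.6, and was tested on simulated data. Precision is limited by the number of arrays.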

Additional observations from a re-analysis of the deposited data

How the results depend on the processing

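No paired analysis was possible because each line has 1 array, and no array could be left out. The alternatives were medians set equal, quantile normalization, a lowess curve (span 0.3) of ratio against mean signal, floors at the 20th and 60th percentile, no floor, the median over probe sets, leaving out probe sets with an _s, _x or _a suffix, leaving out Mybl2, Ccna2, Mki67 and Top2a, whose phase is less clear, and the mean in place of the median. Those for the MCM subunits and loaders and for the 1.5-fold counts were chosen after seeing the data. A value counts as moved past 0.18 log2, the median SD between probe sets. The S-phase median moved to 0.19 and the difference from the mitotic median to 0.21 without suffixed probe sets, and to 0.36 and 0.28 as means. The count of members past 2-fold went from 0 to 1 by the median over probe sets and to 1 without suffixed probe sets. That member was Top2a, reversed to -1.05 and -2.72. S-phase members at least 1.5-fold higher numbered 10 under 7 of the 8 choices of scaling, floor and probe set. Without suffixed probe sets they numbered 8 of the 17 that remained, since Cdc6 and Mcm7 had no probe set left. Mitotic members so much higher, 1 as reported, numbered 4 with equal medians and 0 by lowess, by the median over probe sets and without suffixed probe sets. List genes past 2-fold, 11 as reported, numbered 6 after quantile normalization and 6 after lowess. S-phase members above 0, 16 as reported, numbered 13 after quantile normalization and 12 after lowess, since small ratios crossed 0. Equal medians raised all ratios by 0.10, and 74.6% of genes past 1.5-fold were then higher, against 62.3% as reported. By the median over probe sets Bub1b (0.19), Cenpf (0.08) and Tpx2 (-0.04) changed sign.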
